A study of Mus musculus with 10 samples.

Results

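The 8 genes described here encode the core of the PI3K, Akt and mTOR pathway: Pik3ca, Pik3r1, Akt1, Akt2, Mtor, Rptor, Tsc1 and Tsc2. They were picked by gene name, by a rule that uses no measured value, though with earlier results of these data known, and all 8 were found among the 18381 genes of the table. The data are RNA sequencing of first lower molars of wild-type C57BL/6JOlaHsd mouse embryos at E14. After dissection, the teeth were cultured for 6 h as hanging drops, either with recombinant mouse insulin-like growth factor 1 (IGF1) at 750 ng/ml or with the vehicle alone, phosphate-buffered saline with bovine serum albumin. The 2 teeth of an embryo were split between the treatments, which gave 5 IGF1 and 5 control samples from the embryos with the numbers 1, 2, 3, 4 and 6. Left and right sides were balanced, and every tooth was its own library.

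IGF1 binds a receptor tyrosine kinase, and class I PI3K recruited to that receptor makes the membrane lipid PIP3. PIP3 brings Akt to the membrane, Akt phosphorylates Tsc2 and so relieves the block that the Tsc1 and Tsc2 complex places on the small GTPase Rheb, and Rheb then activates mTOR complex 1, in which Rptor binds the substrates. The pathway couples growth factors and nutrients to cell growth and protein synthesis. It signals by phosphorylation, which RNA sequencing does not measure, so the values below are mRNA levels only.

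Library totals were 2845773 to 8403151 counts in the control teeth (median 6899838) and from 3456634 to 8763113 in the IGF1 teeth (median 7080190), and both teeth of embryo 1 were the shallowest of their group. Levels are given as CPM, the normalised count of a gene scaled to a common library total. All 12 markers of dental epithelium and all 12 of dental mesenchyme passed the filter on low counts. The summed epithelial markers (control 1643 to 2408 CPM, IGF1 1957 to 2558 CPM) were lower with IGF1 in 1 of 5 embryos. Of the 12, only Krt5 was called higher and 11 were not called, with a median log2 fold change of 0.08. The summed mesenchymal markers (7222 to 9343 against 6678 to 9272 CPM) were lower in 4 of 5. Of the 12, 2 were called lower, Pdgfra (mean 969 to 672 CPM) and Vim (1412 to 1062 CPM), and 10 were not called. Among those 10, Lum, Col1a1 and Col1a2 had log2 fold changes of 0.22, 0.14 and 0.10, and the rest were below 0. The summed markers of endothelium (control 387 to 440 CPM, IGF1 307 to 407 CPM), of macrophages (62.5 to 87.1 against 53.0 to 79.8 CPM) and of erythroid cells (849 to 1422 against 604 to 1109 CPM) were lower in the IGF1 tooth in 5 of 5 embryos. Of the markers of these last cell types, 1 of 7 endothelial, 1 of 7 macrophage and 5 of 6 erythroid genes tested were called lower. In whole teeth, fewer cells of a type and less RNA per cell cannot be told apart. The part of these markers in the results below was not tested.

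With IGF1, the catalytic subunit gene Pik3ca fell and the regulatory subunit gene Pik3r1 rose, while Akt1, Akt2, Mtor, Rptor, Tsc1 and Tsc2 did not pass the test. A gene was called at an adjusted p under 0.05 in edgeR's quasi-likelihood test, with the embryo as a block. Thus 2 of the 8 genes were called, against 11.5% of the 14504 genes tested. Of the 8 genes 1 was called higher, against 6.72% of all genes, and 1 lower, against 4.76%. The control and IGF1 samples did not overlap for 1 of the 8 (Pik3r1), against 7.25% of all genes. The direction was the same in all 5 embryos for 3 of the 8 (Pik3ca, Pik3r1 and Tsc2), against 24.2% of all genes. The median log2 fold change of the 8 genes was -0.03, and that of all genes tested was -0.0038. With 8 genes, these shares rest on 1 to 3 genes each. All 8 are well expressed: their mean levels lie above those of 82.9% to 92.7% of the genes tested. Their raw counts run from 311 (Tsc1, control tooth of embryo 1) to 2030 (Pik3r1, IGF1 tooth of embryo 3). The share called was larger among well counted genes. With only genes of at least 50 counts in every sample, 1558 of 9070 were called, with the same 2 of the 8 genes among them.

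**Figure D1:**
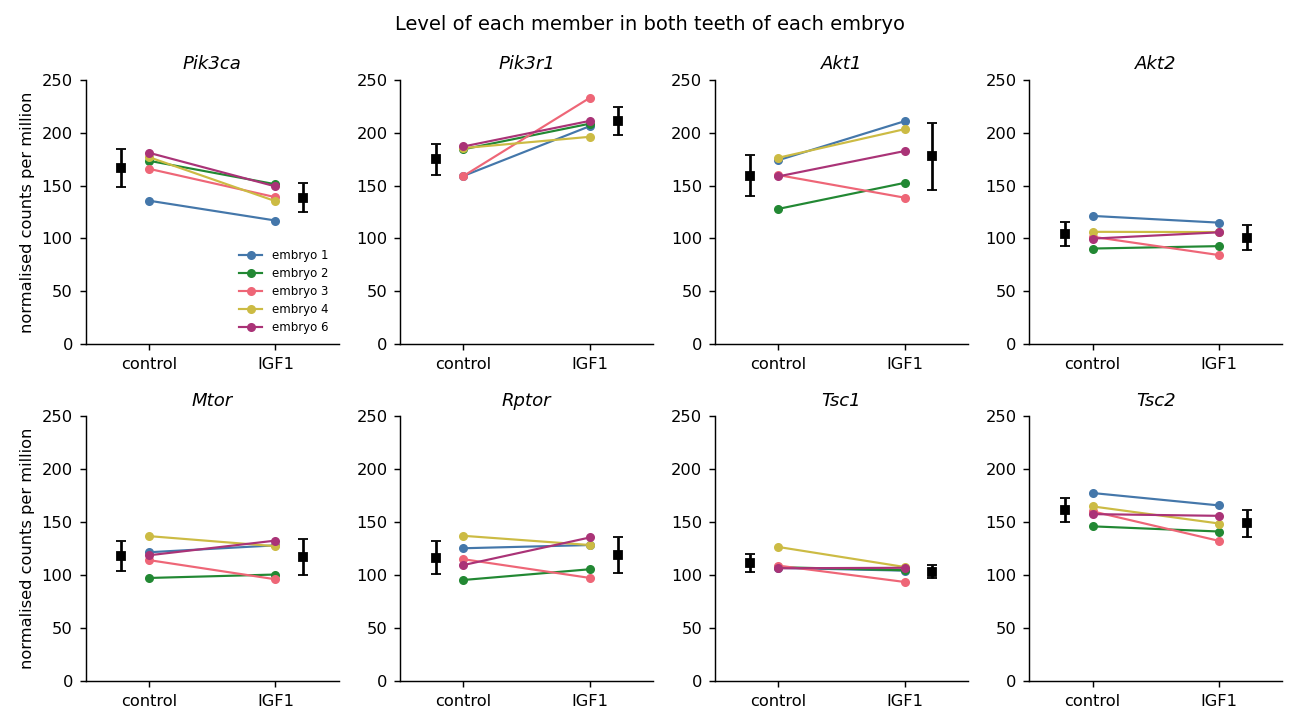
Level of each of the 8 genes in every tooth, in CPM, with a line joining the control and the IGF1 tooth of each embryo. All 5 lines fall for Pik3ca and all 5 rise for Pik3r1, whose lowest IGF1 tooth (196 CPM) lies above the highest control tooth (187 CPM).

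Pik3ca (ENSMUSG00000027665, GRCm38 chr3:32397671-32468486, plus strand) encodes the catalytic subunit p110-alpha of class I PI3K, the isoform best known for signalling from receptor tyrosine kinases. In the control teeth of embryos 1, 2, 3, 4 and 6 it stood at 136, 173, 166, 177 and 181 CPM. In the IGF1 teeth of the same embryos it stood at 117, 151, 139, 135 and 149 CPM. Every IGF1 tooth was below its own control, while the groups overlapped, because the control tooth of embryo 1 lay below 3 of the 5 IGF1 teeth. The mean was 166.6 ± 18.1 CPM in controls and 138 ± 13.7 CPM with IGF1 (SD, n = 5 each). Pik3ca fell by 16.9% (log2 fold change -0.27, SE 0.0636, 95% interval -0.41 to -0.13, adjusted p = 0.0209 in edgeR's quasi-likelihood test). The ratios within embryos were alike, from -0.39 in embryo 4 to -0.20 in embryo 2 on the log2 scale. The call rests on the pairing and on single embryos. The adjusted p was 0.138 without the embryo block, at the same log2 fold change of -0.27. It was 0.0509, 0.0987 and 0.0702 without embryos 1, 4 and 6, at log2 fold changes of -0.28, -0.24 and -0.27.

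Pik3r1 (ENSMUSG00000041417, GRCm38 chr13:101680563-101768217, minus strand) encodes the regulatory subunits p85-alpha, p55-alpha and p50-alpha, which stabilise the catalytic subunit, hold it inactive and dock it on phosphorylated receptors and adaptors. Its control levels were 159, 184, 159, 185 and 187 CPM in embryos 1, 2, 3, 4 and 6. Its IGF1 levels were 206, 208, 233, 196 and 211 CPM. All 5 IGF1 teeth lay above all 5 control teeth. The mean rose from 174.9 ± 14.5 to 211 ± 13.6 CPM (SD, n = 5 each), which is 20.7% higher (log2 fold change 0.27, SE 0.0785, 95% interval 0.10 to 0.44, adjusted p = 0.0485, edgeR). The size of the rise differed between embryos, from 0.08 in embryo 4 to 0.55 in embryo 3 on the log2 scale. The adjusted p lies close to the threshold. It was 0.0738 without the embryo block, 0.0505 with size factors from DESeq2 and 0.0581 without the filter on low counts, each with a log2 fold change of 0.27. Without embryos 1, 2, 3, 4 and 6 in turn it was 0.139, 0.0748, 0.108, 0.0661 and 0.102, at log2 fold changes of 0.25, 0.29, 0.19, 0.32 and 0.29.

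The start regions of these 2 genes are shown because they are the members that were called, in opposite directions, and because the count of Pik3r1 adds transcripts from more than 1 start. The windows are RefSeq sequence (GRCm38.p6), from 250 bases before to 50 bases from the start of transcription, written 5′ to 3′ on the strand of the gene. Capitals mark GGGCGG, the core of the GC box bound by Sp factors. The Pik3ca window (chr3:32396815-32397114, plus strand) is 63.3% G and C and holds the motif 1 time, at -124. Its RefSeq start, 32397065, lies before the start of the gene given above from GENCODE.
Pik3ca: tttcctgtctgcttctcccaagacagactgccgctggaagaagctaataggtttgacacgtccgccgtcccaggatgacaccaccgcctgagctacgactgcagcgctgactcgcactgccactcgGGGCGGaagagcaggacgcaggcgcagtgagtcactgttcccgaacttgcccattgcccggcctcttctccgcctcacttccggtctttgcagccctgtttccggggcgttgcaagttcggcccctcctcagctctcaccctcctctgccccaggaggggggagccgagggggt
The first Pik3r1 window (chr13:101768168-101768467, minus strand) belongs to the outermost start, is 75.7% G and C and holds the motif 4 times, at -190, -70, -34 and -21.
Pik3r1, outer start: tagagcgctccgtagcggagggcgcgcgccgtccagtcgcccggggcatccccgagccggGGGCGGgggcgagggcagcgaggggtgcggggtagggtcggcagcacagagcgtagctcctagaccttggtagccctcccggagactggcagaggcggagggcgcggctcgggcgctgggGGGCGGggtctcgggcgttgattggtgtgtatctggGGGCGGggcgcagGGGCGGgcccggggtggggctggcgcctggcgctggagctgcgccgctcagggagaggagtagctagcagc
The second Pik3r1 window (chr13:101692581-101692880, minus strand) belongs to a start inside the gene, is 43.7% G and C and does not hold these letters on either strand.
Pik3r1, inner start: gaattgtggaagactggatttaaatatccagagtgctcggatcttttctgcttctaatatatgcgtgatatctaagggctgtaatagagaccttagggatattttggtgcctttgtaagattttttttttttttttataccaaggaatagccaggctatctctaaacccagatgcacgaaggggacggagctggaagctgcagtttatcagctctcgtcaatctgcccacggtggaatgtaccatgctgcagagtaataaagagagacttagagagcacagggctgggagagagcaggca
RefSeq gave 13 windows for the 8 genes. GGGCGG or its reverse complement CCGCCC was in 5 of the 13 windows, against 35.7% of all 32851 windows. The FoxO motif GTAAACA or its reverse complement TGTTTAC was in 1 of 13, an Akt1 window (chr12:112674835-112675134, minus strand, at -161), against 3.65% of all windows. The E-box CACGTG was in 0 of 13, against 7.15%. These matches describe the letters of the windows, and binding was not measured.

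Among the 9 class I PI3K subunit genes, all tested, 2 were called higher and 2 lower, and the median log2 fold change was -0.20. Beside Pik3ca the lower gene was Pik3cd, the catalytic subunit best known from leukocytes, with a log2 fold change of -0.61 (SE 0.130, adjusted p = 0.0132, edgeR). The macrophage markers above were also lower with IGF1, and their part in the Pik3cd value was not tested. Pik3cb, the other broadly expressed catalytic subunit, had a log2 fold change of -0.20 and did not pass (adjusted p = 0.405, edgeR). Beside Pik3r1 the higher gene was Pik3r3, a further regulatory subunit, with 0.86 (SE 0.102, adjusted p = 0.000494, edgeR). Pik3r2, the p85-beta gene, was higher in 5 of 5 embryos with 0.19, without passing (adjusted p = 0.142, edgeR).

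Per length of exon, Pik3ca made up 71.2 ± 3.29% of the class I catalytic subunit signal in controls and 73.1 ± 2.16% with IGF1 (SD, n = 5 each), and this share was higher in 3 of 5 embryos. Pik3r1 made up 35.4 ± 2.67% of the signal of Pik3r1, Pik3r2 and Pik3r3 in controls and 33.6 ± 2.28% with IGF1, higher in 1 of 5 embryos. The level of Pik3r1 was thus higher in 5 of 5 embryos and its share of the regulatory subunits in 1 of 5. The share of Pik3r3 went from 15.4 ± 1.34% to 22.1 ± 3.42% and was higher in 5 of 5 embryos.

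**Figure D2:**
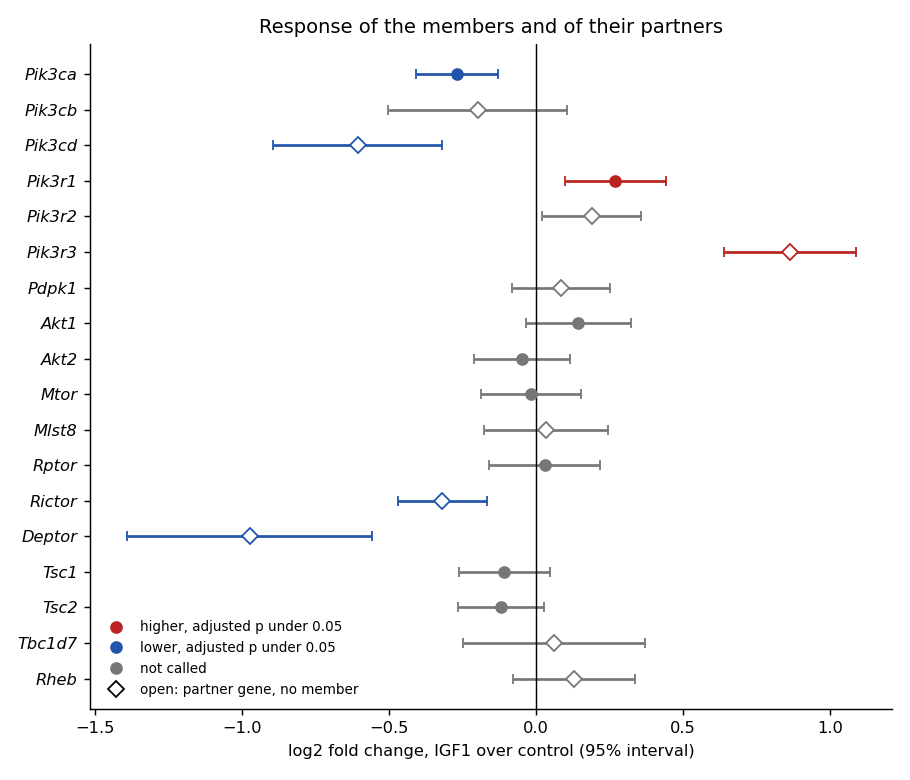
Log2 fold change of IGF1 over control with its 95% interval, for the 8 genes (filled circles) and for paralogs and complex partners (open diamonds). The intervals of Akt1, Akt2, Mtor, Rptor, Tsc1 and Tsc2 include 0. Pik3r3 (0.86), Deptor (-0.97), Pik3cd (-0.61) and Rictor (-0.32) lie farther from 0 than any of the 8 genes.

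The Akt kinases act directly downstream of PIP3. Akt1 (ENSMUSG00000001729, GRCm38 chr12:112653821-112674884, minus strand), the isoform most associated with growth, had 174, 128, 160, 176 and 159 CPM in the control teeth of embryos 1, 2, 3, 4 and 6. The IGF1 teeth had 211, 153, 139, 203 and 183 CPM. Akt1 was higher with IGF1 in embryos 1, 2, 4 and 6, with log2 ratios of 0.20 to 0.28, and lower in embryo 3, with -0.21, and the groups overlapped. Its log2 fold change was 0.14 (SE 0.0809, 95% interval -0.03 to 0.32) and did not pass (adjusted p = 0.290, edgeR). Without embryo 3, the only embryo in which Akt1 fell, the log2 fold change was 0.23 and the adjusted p was 0.0449 (edgeR). In the other 10 of 11 alternative settings Akt1 was not called, and without the embryo block the adjusted p was 0.559 (edgeR). Akt2 (ENSMUSG00000004056, GRCm38 chr7:27591552-27640826, plus strand), the isoform best known from insulin-driven glucose uptake, had 121, 90.4, 102, 106 and 99.8 CPM in controls. With IGF1 it had 115, 92.7, 84.2, 106 and 106 CPM. The groups overlapped almost entirely, and the interval of the log2 fold change (-0.05, SE 0.0738) ran from -0.21 to 0.12 (adjusted p = 0.741, edgeR).

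Of the 31-base words in Akt2 transcripts, 13.3% also occur in another gene, all in the pseudogene Akt2-ps, which had 12 counts over all samples. Akt1 and Akt2 shared 3 such words.

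Mtor (ENSMUSG00000028991, GRCm38 chr4:148448611-148557683, plus strand) encodes the kinase common to both mTOR complexes. It stood at 122, 97.3, 114, 137 and 119 CPM in the control teeth of embryos 1, 2, 3, 4 and 6 and at 128, 101, 96.1, 127 and 133 CPM in the IGF1 teeth. Rptor (ENSMUSG00000025583, GRCm38 chr11:119602905-119899576, plus strand), the scaffold particular to mTOR complex 1, stood at 125, 95.4, 115, 137 and 109.5 CPM in controls and at 128, 106, 97.3, 128 and 136 CPM with IGF1. For both genes the IGF1 tooth was higher in embryos 1, 2 and 6 and lower in embryos 3 and 4, and the groups overlapped almost entirely. The log2 fold change of Mtor was -0.02 (SE 0.0765, 95% interval -0.19 to 0.15, adjusted p = 0.923, edgeR). That of Rptor was 0.03 (SE 0.0852, 95% interval -0.16 to 0.22, adjusted p = 0.869, edgeR). As folds, these intervals run from 0.880 to 1.11 for Mtor and from 0.896 to 1.16 for Rptor. Their signs changed when single embryos were left out, between -0.07 and 0.04 for Mtor and between -0.05 and 0.10 for Rptor.

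Of 12 genes for subunits and chaperones of the mTOR complexes, 0 were called higher and 2 lower, with a median of -0.03. Rictor, the scaffold of mTOR complex 2, fell by 0.32 on the log2 scale (SE 0.0689, adjusted p = 0.0140, edgeR). This call was lost without embryo 1, 4 or 6, with log2 fold changes of -0.29, -0.29 and -0.31, and without the block, with -0.31. Deptor, an inhibitory subunit of both complexes, fell by 0.97 (SE 0.189, adjusted p = 0.00786, edgeR). Its log2 ratios ran from -1.55 in embryo 4 to -0.05 in embryo 6, and its lowest count was 37 (IGF1 tooth of embryo 1). Mlst8, a subunit of both complexes, had 0.04 (adjusted p = 0.860, edgeR). Per length, Rptor made up 36.7% of the summed Rptor and Rictor signal in controls and 42.5% with IGF1, higher in 4 of 5 embryos.

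Tsc1 and Tsc2 form the complex that holds Rheb inactive, with Tsc2 as its GTPase-activating subunit and Tsc1 as the subunit that stabilises it. Tsc1 (ENSMUSG00000026812, GRCm38 chr2:28641228-28691167, plus strand) had 107, 108, 109, 127 and 106 CPM in the control teeth of embryos 1, 2, 3, 4 and 6 and 104, 105, 93.5, 108 and 107 CPM in the IGF1 teeth. Apart from a high control tooth in embryo 4 and a low IGF1 tooth in embryo 3, the teeth of both groups lay between 104 and 109 CPM. Tsc2 (ENSMUSG00000002496, GRCm38 chr17:24595816-24632630, minus strand) had 178, 146, 160, 165 and 158 CPM in controls and 166, 141, 132, 149 and 156 CPM with IGF1. Tsc2 was lower with IGF1 in 5 of 5 embryos, by 0.01 (embryo 6) to 0.28 (embryo 3) on the log2 scale, and the groups overlapped. The log2 fold changes were -0.11 for Tsc1 (SE 0.0702, 95% interval -0.26 to 0.05, adjusted p = 0.371) and -0.12 for Tsc2 (SE 0.0662, 95% interval -0.26 to 0.03, adjusted p = 0.291), both by edgeR. Neither passed. The exons of Tsc2 overlap those of Pkd1 on the other strand over 693 bases, or 7.2% of their length, and whether the counting used strand is not given in the sources used here. The log2 fold change of Pkd1 was -0.05. Of the 5 genes of the TSC complex and Rheb, 1 was called, Rhebl1, a relative of Rheb, which fell by 0.72 (adjusted p = 0.0185, edgeR). Its call was lost without embryo 1, 2 or 4 (log2 fold changes of -0.64, -0.71 and -0.68). Rheb itself had 0.13 (adjusted p = 0.424, edgeR) and Tbc1d7, the third subunit, 0.06 (adjusted p = 0.827, edgeR).

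Embryos differed in the direction of the 8 genes. In embryo 3, 7 of the 8 were lower with IGF1, at log2 ratios of -0.28 to -0.21, and Pik3r1 rose by 0.55. In embryo 6, 6 of the 8 were higher. In embryos 1, 2 and 4, 4, 3 and 6 of the 8 were lower. The median ratios of the 8 genes in embryos 1, 2, 3, 4 and 6 were -0.00, 0.04, -0.24, -0.10 and 0.12, while 47.9% to 51.1% of all genes tested were lower in each embryo. Embryo 3 was also the pair whose teeth did not deviate together from their group means across all genes (correlation -0.0389, and 0.208, 0.313 and 0.319 in embryos 2, 6 and 1), and the part of this in the values above was not tested.

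**Figure D3:**
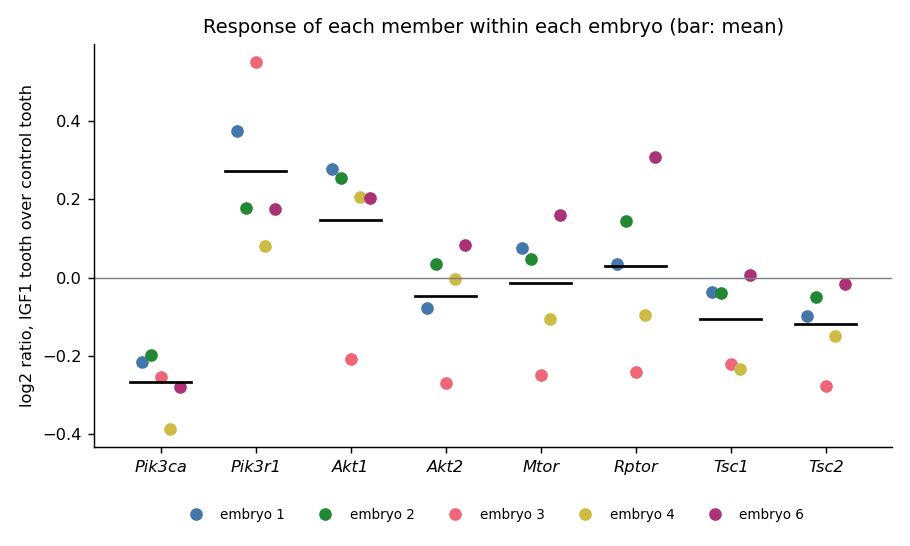
Log2 ratio of the IGF1 tooth to the control tooth in each embryo, for the 8 genes, with a bar at the mean of the 5 embryos. In embryo 3 every gene but Pik3r1 lies below 0, and Pik3ca lies below 0 and Pik3r1 above 0 in all 5 embryos.

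The sum of squares of log2 CPM was split into embryo, treatment and the rest, as a description. Embryo took 83.3% for Mtor, 80.8% for Akt2, 72.2% for Rptor and 71.2% for Akt1, against a median of 52.2% over all genes. Treatment took 0.160% for Mtor, 2.35% for Akt2, 0.704% for Rptor and 11.6% for Akt1, against a median of 12.2%. For Pik3r1 the order was the other way round, with 66.7% for treatment and 7.55% for embryo. Pik3ca had 50.05% for embryo and 47.0% for treatment, which left 2.94%. Tsc1 and Tsc2 lay between these, with 27.4% and 24.7% for treatment.

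Partner genes were compared within embryos, as the log2 ratio of the first gene minus that of the second, in 5 pairs. With 5 embryos the smallest p of the exact two-sided permutation test is 0.062, so no pair could pass 0.05. Pik3r1 rose relative to Pik3ca by 0.54 ± 0.167 (SD, n = 5; exact permutation p = 0.062, adjusted p = 0.156), with 0.38 to 0.80 in the 5 embryos. Because Pik3r1 rose and Pik3ca fell in all 5, this p had to be the smallest possible and adds nothing to their calls. Akt1 exceeded Akt2 by 0.19 ± 0.112 (exact permutation p = 0.062, adjusted p = 0.156), also in 5 of 5. Rptor against Rictor gave 0.35 ± 0.296 (exact permutation p = 0.125, adjusted p = 0.208), in 4 of 5. Rptor against Mtor gave 0.04 ± 0.0767 (exact permutation p = 0.312, adjusted p = 0.391), and Tsc1 against Tsc2 gave 0.01 ± 0.0590 (exact permutation p = 0.688, adjusted p = 0.688). The SD of these last 2 differences was below that of the log2 ratios of the single genes, which was 0.162 for Mtor, 0.212 for Rptor, 0.113 for Tsc1 and 0.102 for Tsc2.

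Levels of different genes were compared only per length, as CPM per kb of exon. In controls the order of the 8 genes was Akt1 (38.9 ± 4.70), Pik3ca (18.3 ± 1.99), Pik3r1 (17.4 ± 1.44), Tsc2 (16.8 ± 1.19), Akt2 (14.6 ± 1.58), Mtor (11.6 ± 1.41), Tsc1 (9.41 ± 0.730) and Rptor (8.65 ± 1.17), each as mean and SD over 5 teeth. Only Akt1 stood apart, with a lowest tooth of 31.2 against a highest Pik3ca tooth of 19.9. Every other pair of neighbours in this order overlapped between teeth. These are comparisons of ranges over the 5 teeth of a group. Whether the order held within each single tooth was not examined. With IGF1, Akt1 had 43.3 ± 7.66 and Pik3r1 came next with 20.9 ± 1.35, and its lowest tooth (19.5) lay above the highest Tsc2 tooth (17.2), the next gene in order at 15.5 ± 1.35. Pik3ca followed at 15.2 ± 1.51. The length used is that of all annotated exons together, so a gene with long exons in rare transcripts appears lower than it is.

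**Figure D4:**
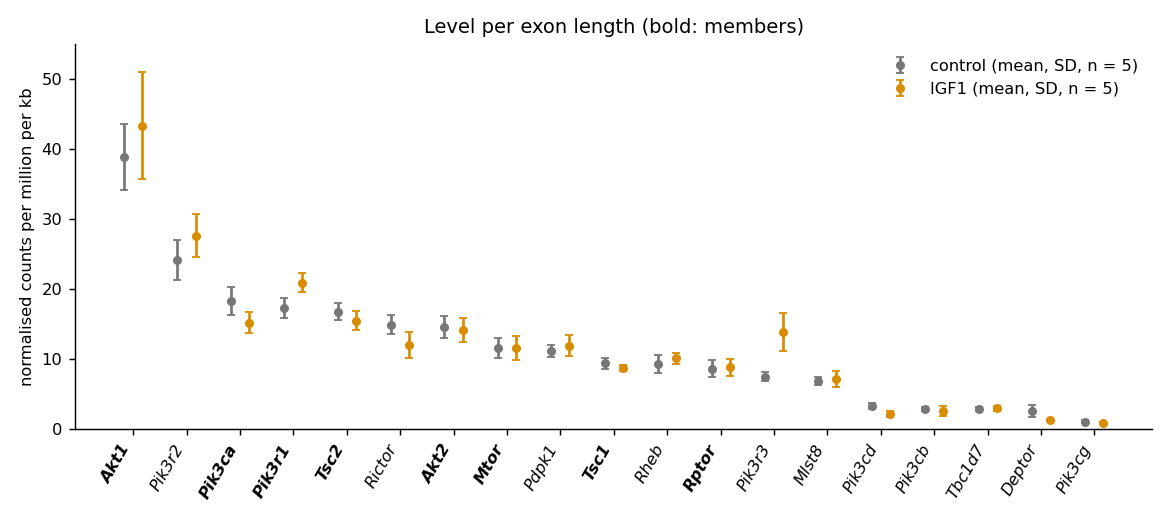
Level per kb of exon in control and IGF1 teeth, for the 8 genes and their paralogs and partners, as mean (point) and SD (bar) of the 5 teeth of each group. Akt1 is highest in both groups, at 38.9 and 43.3 CPM per kb, and Pik3r1 moves from 17.4 to 20.9 while Pik3ca moves from 18.3 to 15.2.

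The wider pathway was described by 9 lists with 109 genes, of which 107 were tested. Without the 8 members, 24 of 99 genes were called, 9 higher and 15 lower, beside the 11.5% of all genes given above. The median log2 fold change was -0.03. Of the 24, 23 had the same direction in all 5 embryos (Sec13 in 4), and in 12 the groups did not overlap. These genes were picked by a test paired by embryo, so these counts only describe the calls and are no further evidence for them. The number of list genes called was 13 without the embryo block, 12 without embryo 1, 15 without embryo 2 and 12 without embryo 4.

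Genes called among the inhibitors and stress inputs are given first. Of 8 tested genes for phosphoinositide phosphatases and PI3K inhibitors, 1 was called higher and 3 lower, with a median of -0.09. Among those called lower, Pik3ip1, a membrane inhibitor of PI3K, fell by 0.98, and Inpp5k, a phosphoinositide phosphatase, by 0.63 (adjusted p = 0.0106 and 0.00189, edgeR). Ddit4, a stress-induced gene that activates the Tsc complex, rose by 1.71 (SE 0.269, adjusted p = 0.00259, edgeR), with log2 ratios from 0.69 in embryo 1 to 2.96 in embryo 2. Prkaa2, a catalytic subunit of the energy sensor AMPK, rose by 0.58 (adjusted p = 0.0272, edgeR). That call was lost when embryo 1, 2, 3 or 4 was left out (log2 fold changes of 0.57, 0.51, 0.50 and 0.63), without the block (0.59, adjusted p = 0.121) and in the DESeq2 Wald test (0.58, adjusted p = 0.0596). Of 9 energy and stress genes, 2 were called higher and 0 lower.

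Of 28 tested genes of the amino acid arm of mTOR complex 1, 3 were called higher and 3 lower, with a median of 0.01. Seh1l and Sec13, subunits shared by GATOR2 and other complexes, rose by 0.46 and 0.41, and Castor2 and Flcn fell by 0.50 and 0.37. All 4 lost their calls without the block, at log2 fold changes of 0.48 (Seh1l), 0.43 (Sec13), -0.50 (Castor2) and -0.37 (Flcn). Calls were also lost for Seh1l without embryo 2, 3 or 4 (0.39, 0.37 and 0.47), for Sec13 without embryo 1, 4 or 6 (0.34, 0.39 and 0.35), and for Flcn without embryo 1, 3, 4 or 6 (-0.34, -0.32, -0.30 and -0.42), without the filter (-0.36) and in the DESeq2 Wald test (-0.37). Of 22 substrates and effectors of Akt and mTOR complex 1, 2 were called higher and 3 lower, with a median of 0.00. Lpin1, a phosphatidate phosphatase, rose by 0.99 and Eif4g1, a translation initiation factor, by 0.27 (adjusted p = 0.0490, edgeR). The Eif4g1 call was lost when embryo 1, 2, 4 or 6 was left out (0.25, 0.26, 0.30 and 0.21), without the block (0.27, adjusted p = 0.213), with DESeq2 size factors (0.27, adjusted p = 0.0504) and without the filter (0.27, adjusted p = 0.0541). Pdcd4, an inhibitor of translation, and Maf1, a repressor of RNA polymerase III, each fell by 0.42. The S6 kinase gene Rps6kb1 had -0.03 (adjusted p = 0.865, edgeR) and Eif4ebp1, the translation repressor inactivated by mTOR complex 1, 0.29 (adjusted p = 0.268, edgeR). With an embryo left out, Eif4ebp1 ran from 0.08 to 0.40, and it did not pass in any alternative. Its IGF1 tooth of embryo 2 stood at 94.6 CPM, against 36.7 to 52.0 CPM in the other IGF1 teeth.

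The lists of class II and III PI3K and of Akt kinases each held 1 call. Pik3c3, the class III PI3K that acts in autophagy, fell by 0.48 as the 1 call among 5 class II and III genes. Sgk3, a kinase related to Akt, fell by 0.47 as the 1 call among 9 genes for Akt kinases and their regulators, and that call was lost without embryo 1, 2, 4 or 6 (-0.48, -0.39, -0.48 and -0.43). Pdpk1, the kinase that activates Akt, had 0.09 (adjusted p = 0.518, edgeR).

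**Figure D5:**
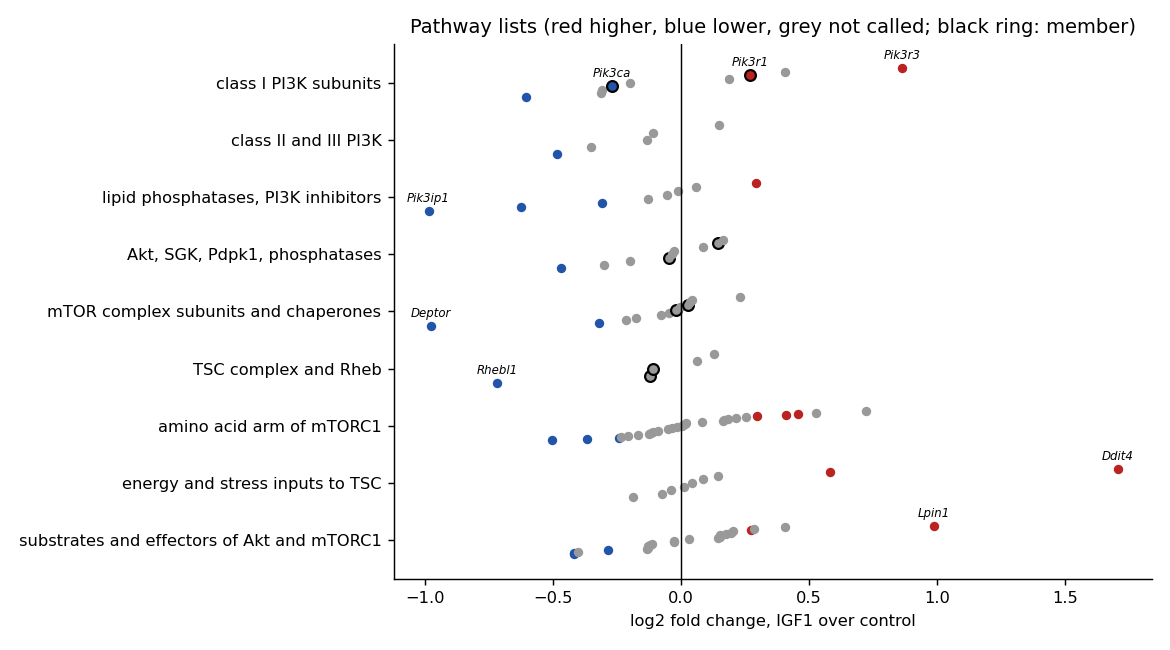
Log2 fold changes of the genes in the 9 pathway lists, one point per gene, with genes called higher in red, genes called lower in blue and black rings around the 8 core genes. The medians of the lists lie between -0.20 (class I PI3K subunits) and 0.04 (energy and stress inputs), and the farthest point is Ddit4 at 1.71.

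The genes most like each member were found by the root mean square difference of centred log2 CPM over the 10 samples, as a description over points that share embryos. Mtor and Rptor were among each other's nearest 2 genes, at 0.0476. Cd2bp2 was the other for both, at 0.0428 and 0.0577. For Pik3ca the nearest were Prpf18 (0.0551) and Ankrd28 (0.0685), for Pik3r1 Recql (0.0759) and Rrm1 (0.0778), for Akt1 Mlf2 (0.0649) and Gcn1l1 (0.0676), and for Akt2 Arhgap39 (0.0478) and Nsfl1c (0.0545). Tsc1 was nearest to Sptan1 (0.0406) and Med13l (0.0484), and Tsc2 to Rps14 (0.0322) and Zfp827 (0.0372). No other member was among the nearest genes of Pik3ca, Pik3r1, Akt1, Akt2, Tsc1 or Tsc2.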

How the data were processed

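First lower molars of 5 embryos were compared as pairs of 1 IGF1 and 1 control tooth, and groups and embryo numbers came from the sample labels. The authors deposited estimated counts per gene, not normalised and with 0 values that are not whole. The submitters' processing notes name FastQC 0.11.8, Trimmomatic 0.39, Salmon 0.99.0, DESeq2 and the build GRCm38. The transcript set and strand setting are not given in the sources used here, and each gene had at least 10 counts in all. Estimated counts split reads between transcripts that share sequence, so overlapping genes and pseudogenes are less certain. Library preparation used the Ovation Mouse RNAseq System.

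Gene symbols and positions were taken from GENCODE mouse release 21 (18287 of 18381 identifiers). Counts were normalised by TMM, filtered with filterByExpr and tested with edgeR 4.0.16 (glmQLFit, glmQLFTest) in R 4.3.3, with the embryo as a block, on all 14504 genes that passed. The p-values were adjusted by the Benjamini-Hochberg method over all of these genes. The block follows from teeth of the same embryo, whose deviations from the group means correlated at 0.319, 0.208, -0.0389, 0.170 and 0.313 in embryos 1, 2, 3, 4 and 6 (median between embryos -0.0463). CPM are TMM-scaled, and log2 CPM used a prior count of 2. Partner genes were compared with an exact two-sided permutation test over embryos. Scripts were tested on simulated data.

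The alternatives were no block, DESeq2 size factors, the DESeq2 1.42.0 Wald test, limma-voom (limma 3.58.1), no filter, at least 50 counts in every sample, and leaving out each embryo. Named genes were the 8 members, partners and paralogs whatever their values, up to 2 higher and 2 lower called genes per pathway list by size, and the 2 nearest genes of each member. Some of the named genes are not reported here. Cell markers of 7 types were summed as CPM; markers of Schwann cells and glia and of skeletal muscle had 2 genes tested each and 0 called by edgeR. The rule for the members uses gene names alone, but the members, lists, motifs and markers were chosen with earlier results of these data known, so the shares of members called are descriptions. No protein sequences were used here.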

Additional observations from a re-analysis of the deposited data

Results flagged for a closer look

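In 5 of the 74 groups of 5 teeth examined, 1 tooth stood far from the other 4 by Dixon's criterion, where chance gives about 1 in 20, or 3.7 groups. For Tsc1 this was the control tooth of embryo 4 at 126.662 CPM, with the others between 106 and 109 CPM, and the IGF1 tooth of embryo 3 at 93.5371 CPM, with the others between 104 and 108 CPM. Eif4ebp1 stood at 94.6175 CPM in the IGF1 tooth of embryo 2, against 36.7 to 52.0 CPM in the others. Pik3r3 stood at 33.3236 CPM in the control tooth of embryo 1, against 41.0 to 42.1 CPM. Pik3c3 stood at 84.2523 CPM in the control tooth of embryo 4, against 68.1 to 72.8 CPM. Of the 8 core genes only Tsc1 is among these 4 genes.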

How the results depend on the processing

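The number of the 8 genes called, 2 with the embryo block, was 0 with no replicate block, 1 with DESeq2 size factors, 1 with no filter on low counts, and 0 to 2 with an embryo left out (2 without embryo 3, when Akt1 was called and Pik3r1 was not, and 1 without embryo 2). With no replicate block, Pik3ca had -0.27 (adjusted p 0.138) and Pik3r1 0.27 (adjusted p 0.0738) by edgeR, and 13 list genes beside the members and 887 of all genes were called. Pik3r1 had 0.27 with DESeq2 size factors and 0.27 with no filter, and lost its call in both. With an embryo left out, Pik3ca ran from -0.29 to -0.24, Pik3r1 from 0.19 to 0.32, Akt1 from 0.11 to 0.23, Akt2 from -0.0834 to 0.00752, Mtor from -0.0657 to 0.0390 and Rptor from -0.0457 to 0.0952, and 12 to 17 list genes and 986 to 1602 of all genes were called. Over the 11 alternatives the adjusted p ran from 0.0144 to 0.138 for Pik3ca and from 0.0305 to 0.139 for Pik3r1, and both kept their direction in each. Tsc1 and Tsc2 kept their direction and missed the threshold in each. The 5 partner differences kept their direction in all 7 alternatives run for them. Of 456 values of 42 other named genes, 394 kept direction and call, 53 lost the call and 9 changed direction. The last were Nsfl1c (0.00111 with no replicate block, -0.0318 to 0.0283 with an embryo left out), Cd2bp2 (-0.0543 to 0.0481), Tbc1d7 (-0.0139 to 0.132), Rps6kb1 (-0.0960 to 0.0105) and Arhgap39 (-0.0900 to 0.0253), and the cause was not tested. Leaving out an embryo also leaves fewer samples. Over the 8 genes together, counts per gene and tooth ran from 311 (Tsc1) to 2030 (Pik3r1), and the intervals of the 6 genes not called include log2 changes of up to 0.32 (Akt1), and changes of that size are not shown to be absent.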
